A study of Mus musculus with 8 samples.

Results

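The Toll-like receptors are 10 genes here (Tlr1, Tlr2, Tlr3, Tlr4, Tlr5, Tlr6, Tlr7, Tlr8, Tlr9 and Tlr13), chosen by symbol from the spots of 8 one-colour Agilent arrays. They were read by 21 of the 56605 probes of each array, and 9 of the 10 genes were among the 18603 genes that could be tested. The arrays held RNA of peritoneal macrophages from mice lacking Card9 (Card9-/-, 4 arrays) and from wild-type mice (wt, 4 arrays). Card9 is the adaptor that passes signals of C-type lectin receptors, which bind fungal cell walls, on to NF-kB. Every mouse of both genotypes had received 1 ml of 3% thioglycolate, an irritant that draws cells into the peritoneum. Cells were harvested after 4 days and those still adherent after 3 h were kept, so the population was selected by adherence and not by a sort. Zymosan, a yeast wall preparation, was given in all samples at 500 mg/kg for 4 h. No sample without zymosan was analysed here, and the comparison is therefore between genotypes after zymosan. The labels speak of 4 or 5 mice per group and do not say whether an array holds 1 mouse or a pool, so that p-values measure only the spread between these samples. The mice's age and the strain behind each genotype are not given in the sources used here.

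Toll-like receptors are membrane proteins that recognise microbial molecules and signal through the adaptors Myd88 and Ticam1 (TRIF) to NF-kB and interferon regulatory factors. Those at the cell surface bind lipopeptides, lipopolysaccharide and flagellin, and those in endosomes bind nucleic acids. In macrophages the surface receptor Tlr2, paired with Tlr6 or Tlr1, is a classical sensor of zymosan beside the lectin Dectin-1 (Clec7a), which signals through Card9. The comparison asks whether receptor transcripts differ between genotypes when that lectin adaptor is missing.

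A level below is the log2 processed signal minus the 75th percentile of the same array's spots, so that 0 is that percentile. Levels of different probes are on different scales and are not ordered against each other. Between 47.8% and 56.5% of spots were well above background on an array, and 0 were saturated. The number of arrays limits the precision. The brighter Card9 probe gave processed signals of 3.60, 11.9, 8.85 and 4.52 on the Card9-/- arrays, against 4.75, 38.2, 1058 and 561 on the arrays labelled wt replicates 1 to 4. The library labelled wt replicate 1 therefore went against its label at this probe, and that of wt replicate 2 was low but well above background. The other Card9 probe was well above background on 0 Card9-/- and 2 wt arrays, with levels of -5.89, -6.26, -5.90 and -3.40 on the Card9-/- arrays and -4.80, -4.57, -1.42 and -4.44 on the wt arrays, so that Card9-/- replicate 4 lay above 3 wt arrays there without being well above background. Arrays are called by their labels throughout. The labels do not say where the deletion lies, and only a probe inside it tests the genotype. Wt replicates 1 and 2 were also the pair most alike of all 28 pairs (correlation 0.985 over the genes tested). Xist, the RNA of the inactive X chromosome, was well above background on 0 Card9-/- and 4 wt arrays, and the Y-linked Eif2s3y on 4 Card9-/- and 0 wt arrays, so that sex and genotype cannot be told apart. Card9-/- replicate 4 and all wt arrays lay on slide 1, Card9-/- replicates 1 and 3 on slide 2, and Card9-/- replicate 2 on slide 3. By the file headers, Card9-/- replicate 3 was scanned on another date than the other arrays. Macrophage markers were present on all arrays. For example Adgre1, which encodes F4/80, had levels of 1.62, 2.04, 2.42 and 1.94 on the Card9-/- arrays and 0.67, 0.35, 7.72 and 5.92 on the wt arrays.

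The sequences of the probes that the results turn on are shown as stretches of 30 of their 60 bases, 5′ to 3′ on the gene's strand, from the deposited scanner files (coordinates on mm9). Capitals mark AATAAA, the polyadenylation signal, which lies near the end of a transcript. It occurred in 4 of the 21 receptor probes, against 9.77% of all probes. The Tlr2 and Tlr13 probes, which moved together across arrays, and the pair of Tlr7 probes, which did not, are given first, followed by the Tlr4 probes and the probe that stands for Tlr8.
Tlr2 (chr3:83640344-83640403, minus strand): gggtaaatctgagaactgcAATAAAgtcct
Tlr13 (chrX:103355773-103355832, plus strand): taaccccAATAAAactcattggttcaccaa
Tlr7, probe standing for the gene (chrX:163743146-163743205, minus strand): cataaatgaaggtctgaatttttcctaaca
Tlr7, further downstream (chrX:163742863-163742922, minus strand): gttcaatgaAATAAAagcccagagaacttc
Tlr4, probe standing for the gene (chr4:66591199-66591258, plus strand): tcttccatagtttgtgcttcatgtccctgc
Tlr4, base 3739 of the transcript (chr4:66503724-66503782, plus strand): tgtgatagggctttaaatagttgagctaat
Tlr4, base 359 of the transcript (chr4:66500344-66500403, plus strand): ccagagtttttccccaggaagtttctctgg
Tlr8, probe standing for the gene (chrX:163679328-163679387, minus strand): ttgagactataactacatcattccctcttt
The closest pair of probes from different receptors, 1 of Tlr1 and that of Tlr2, matched at 29 of 47 aligned bases. The next pairs matched at 25 bases, so that no probe pair of these paralogs was near identical.

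None of the 9 tested receptor genes passed the threshold of the genotype comparison (limma with Benjamini-Hochberg adjustment over all genes, adjusted p under 0.05), where 0.0269% of all genes did. None had an unadjusted p under 0.05 either, against 7.22% of all genes. The 5 genes that passed were Eif2s3y, Ddx3y, Uty, BX528370 and XIST. The first 4 were well above background on 4 Card9-/- and 0 wt arrays, and XIST on 0 and 4. They split the arrays as the sex markers above did, so the share of 0.0269% cannot be read as an effect of genotype. The Card9-/- mean was lower than the wt mean for 6 receptor genes (Tlr1, Tlr2, Tlr3, Tlr4, Tlr6 and Tlr13) and higher for 3 (Tlr7, Tlr8 and Tlr9). The median difference of the 9 was -0.28, beside -0.09 over all 18603 genes, 56.3% of which had a lower Card9-/- mean. The adjusted p-values by limma lay between 0.864 and 0.991. By the exact two-sided permutation test of single genes they lay between 0.286 and 0.914 before adjustment, where 0.0286 is the smallest p that 70 assignments of 4 against 4 arrays allow. The Card9-/- and wt values overlapped for all 21 receptor probes, while 5.22% of all genes had groups that did not overlap. In bulk RNA, fewer cells of a type and less RNA per cell cannot be told apart.

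**Figure D1:**
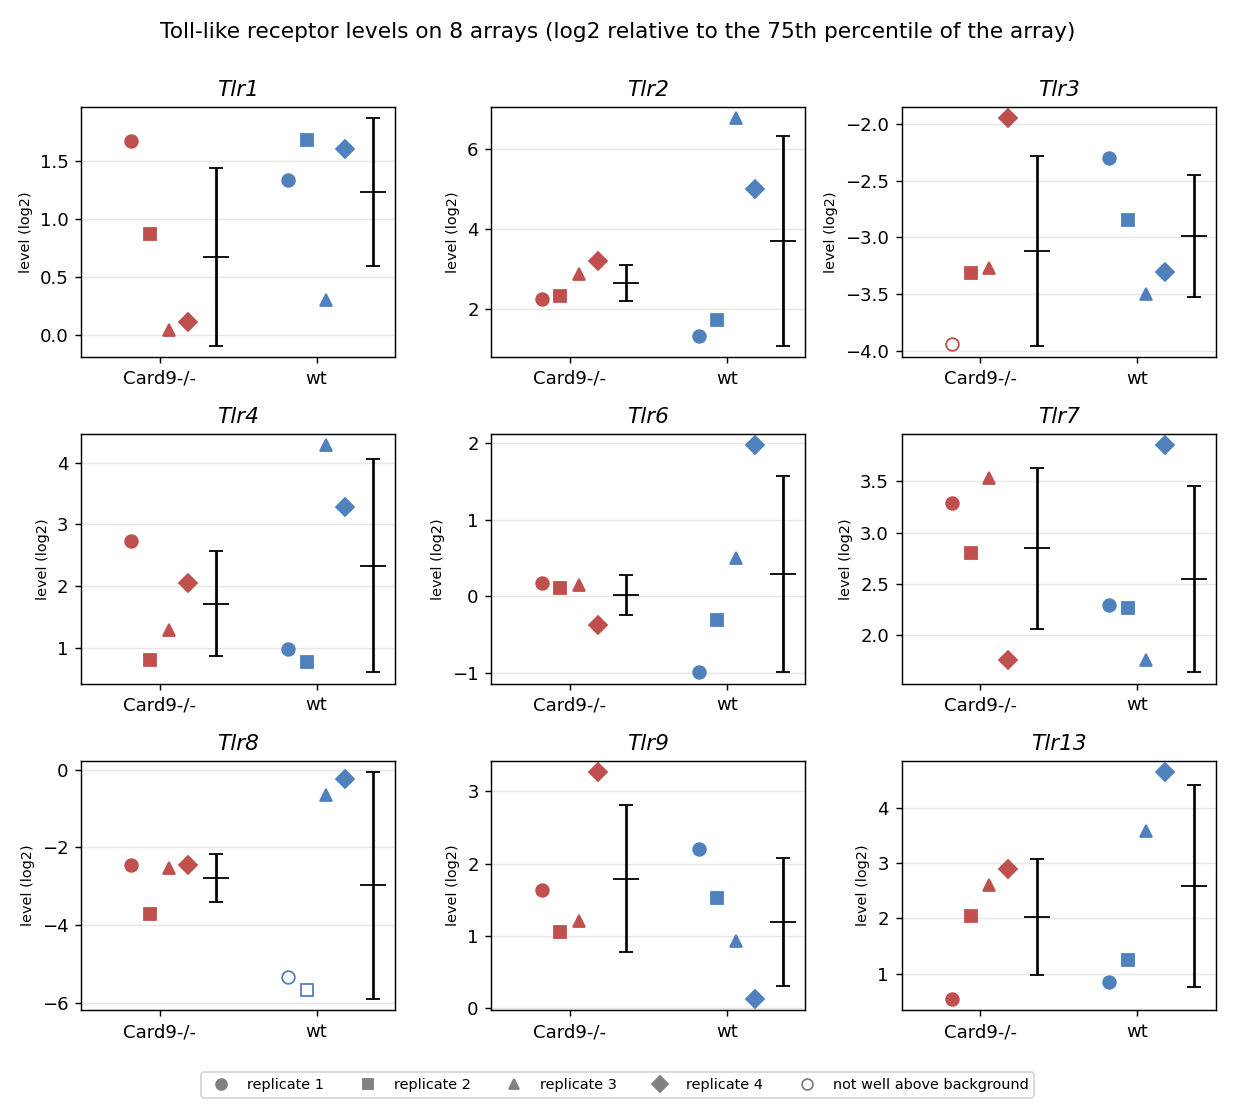
Level of the 9 tested receptor genes on each array (vertical axis, log2 relative to the 75th percentile of the array), Card9-/- at the left and wt at the right of each panel. Marker shapes are replicates, open points were not well above background, and bars are mean ± SD (n = 4). The wt points of Tlr2, from 1.34 to 6.78, spread around the Card9-/- points, from 2.25 to 3.20.

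Among the surface receptors, Tlr2, which senses lipopeptides and zymosan, had levels of 2.25, 2.34, 2.88 and 3.20 on the Card9-/- arrays and 1.34, 1.73, 6.78 and 5.02 on the wt arrays. All 4 Card9-/- values lay between the lower and the upper pair of wt values. The mean was 2.67 ± 0.45 in Card9-/- and 3.72 ± 2.62 in wt (SD, n = 4 each), a difference of -1.05 (SE 1.10, limma adjusted p = 0.889). The wt arrays spanned 43.4-fold and the Card9-/- arrays 1.94-fold. The wt SD was larger than that of 97.6% of all genes, and the Card9-/- SD larger than that of 30.8%. The 95% interval of the genotype ratio ran from 0.0866 to 2.70, so these arrays do not exclude sizeable differences in either direction.

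Tlr4, the receptor for lipopolysaccharide, was described by the probe with the highest mean signal. That probe is annotated to another transcript than the rest and lies 87475 bases downstream of the next probe. It was well above background on all arrays, the other Tlr4 probes only on wt replicates 3 and 4. Whether it reads the mRNA of the receptor was not tested. The levels of this standing probe were 2.73, 0.80, 1.29 and 2.05 on the Card9-/- arrays and 0.99, 0.78, 4.28 and 3.29 on the wt arrays. The difference was -0.61 (SE 0.82, limma adjusted p = 0.913). Again wt replicates 3 and 4 were the highest arrays, while wt replicates 1 and 2 lay with the lower Card9-/- arrays.

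Tlr1 and Tlr6 encode the partners with which Tlr2 forms heterodimers for triacylated and diacylated lipopeptides. Tlr1 had levels of 1.67, 0.87, 0.04 and 0.11 on the Card9-/- arrays, and 1.34, 1.68, 0.30 and 1.60 on the wt arrays. The difference of -0.55 (SE 0.49) was within the spread of the arrays (limma adjusted p = 0.864). The other Tlr1 probe gave a difference of -0.11, and its levels followed those of the first (correlation 0.82 over 8 arrays). Both genotypes thus held high and low arrays of Tlr1. Tlr6 had levels of 0.18, 0.11, 0.14 and -0.37 on the Card9-/- arrays, against -0.99, -0.31, 0.50 and 1.98 on the wt arrays. The Card9-/- arrays were nearly level, with an SD larger than that of only 7.91% of all genes, and the wt arrays lay on both sides of them. The difference was -0.28 (SE 0.60, limma adjusted p = 0.955).

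Tlr5, the flagellin receptor, could not be tested. Neither of its 2 probes was well above background on any Card9-/- array, and they were so on 2 and 1 of the wt arrays. At the probe read on 2 wt arrays, the processed signals were 3.62, 6.59, 15.2 and 3.61 on the Card9-/- arrays and 3.40, 3.65, 30.9 and 47.2 on the wt arrays. No bound above 1 on the fold could be set for either probe.

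Among the endosomal receptors, Tlr7 and Tlr8 recognise single-stranded RNA and its breakdown products. Tlr7 had levels of 3.29, 2.81, 3.54 and 1.76 on the Card9-/- arrays and 2.30, 2.27, 1.76 and 3.85 on the wt arrays. The difference was 0.30 (SE 0.56, limma adjusted p = 0.943), with single arrays high or low in both genotypes. Tlr8 was faint, with levels of -2.45, -3.72, -2.54 and -2.44 on the Card9-/- arrays, all well above background. On the wt arrays Tlr8 had levels of -5.33, -5.66, -0.66 and -0.25, and the first pair was not well above background. As for Tlr2, the Card9-/- values lay between the lower and the upper pair of wt values. The means were -2.79 ± 0.62 in Card9-/- and -2.98 ± 2.91 in wt (SD, n = 4 each), and the difference of 0.19 (SE 1.23) had a limma adjusted p of 0.991. Tlr8 passed the filter on dim probes through the Card9-/- arrays, and its wt mean includes 2 values that were not well above background. With normexp background correction the difference was -0.14.

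Tlr9, the receptor for unmethylated CpG DNA, had levels of 1.63, 1.05, 1.21 and 3.27 on the Card9-/- arrays, against 2.20, 1.52, 0.93 and 0.12 on the wt arrays. It was the only tested receptor gene whose lowest 2 arrays were wt replicates 3 and 4. Card9-/- replicate 4 was the highest array, and the difference was 0.60 (SE 0.61, limma adjusted p = 0.886). The mean level of 7 tested plasmacytoid dendritic cell markers was 1.84, 1.15, 1.01 and 2.53 on the Card9-/- arrays and 1.23, 0.99, 1.20 and 1.37 on the wt arrays. These markers did not move alike. Siglech was highest in Card9-/- replicate 4, with levels of 3.53, 5.00, 3.13 and 7.25 on the Card9-/- arrays and 6.67, 6.53, 6.08 and 5.62 on the wt arrays, while Ccr9 was highest in Card9-/- replicate 1 (0.87). The mean level of the 5 red cell markers was 6.29, 3.74, 3.76 and 8.03 on the Card9-/- arrays and 4.67, 2.82, 4.65 and 0.33 on the wt arrays, so that it too was highest in Card9-/- replicate 4 and lowest in wt replicate 4. Plasmacytoid dendritic cells and B cells are known for high Tlr9. The part of these cells in the Tlr9 values was not tested.

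Tlr13, which recognises bacterial ribosomal RNA in mice, had levels of 0.54, 2.04, 2.61 and 2.90 on the Card9-/- arrays and 0.85, 1.25, 3.59 and 4.66 on the wt arrays. The difference was -0.57 (SE 0.90, limma adjusted p = 0.930). A probe 952 bases upstream gave -0.85 and moved with the first (correlation 0.94 over 8 arrays). Both genotypes therefore held low and high arrays of Tlr13, and the 2 highest were wt.

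Tlr3, the receptor for double-stranded RNA, was near the limit of detection. Its levels were -3.94, -3.31, -3.27 and -1.95 on the Card9-/- arrays, where 3 were well above background, and -2.30, -2.85, -3.50 and -3.30 on the wt arrays, where all 4 were. The difference was -0.13 (SE 0.49, limma adjusted p = 0.979). The second Tlr3 probe was well above background only on wt replicate 4.

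Tlr7, Tlr8 and Tlr13 lie on the X chromosome and the wt libraries alone carried Xist, so a sex difference and a genotype difference cannot be told apart for them. Their differences were 0.30, 0.19 and -0.57.

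**Figure D2:**
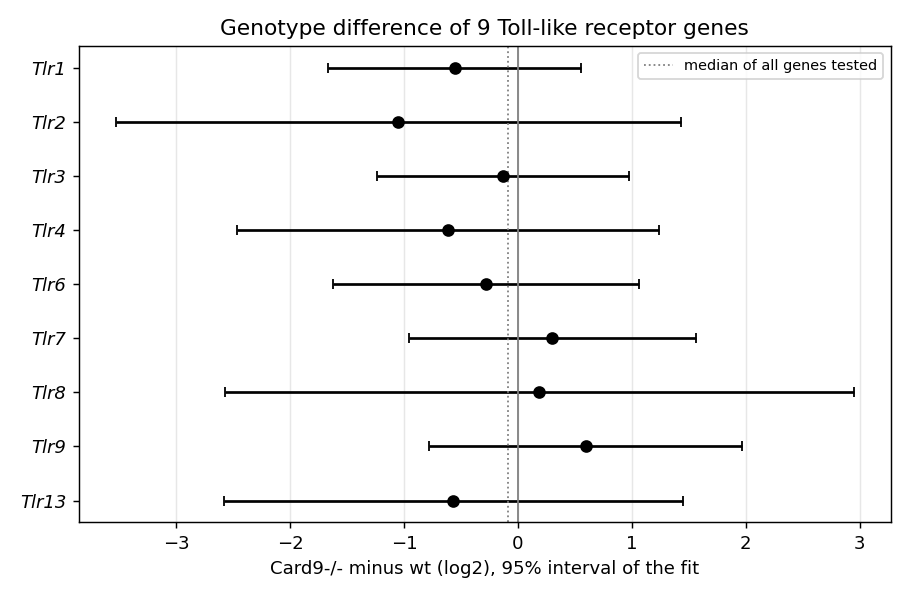
Card9-/- minus wt (horizontal axis, log2) for the 9 tested receptor genes (vertical axis). Points are limma estimates with 95% intervals (n = 4 arrays each), and the dotted line is the median of all genes tested (-0.09). All 9 intervals include 0, and the widest is that of Tlr8, from -2.57 to 2.95.

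Several probes read Tlr7, Tlr4 and Tlr8, and they gave opposite directions for Tlr7. The Tlr7 probe shown above as lying further downstream starts 283 bases from the other and was well above background on all arrays. Its levels were 1.00, 2.04, 1.23 and 1.99 on the Card9-/- arrays and 1.96, 2.14, 2.31 and 3.62 on the wt arrays. Here the Card9-/- mean was lower (difference -0.94, SE 0.47), and the first probe gave a difference of the opposite sign. Over all probes the limma adjusted p was 0.759 (0.0391% of probes passed), and the exact permutation p was 0.0857. The correlation of the 2 probes over the 8 arrays was 0.07. The remaining Tlr7 probe was well above background on 0 arrays. The direction of Tlr7 thus depended on which probe stood for it.

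For Tlr4, the probe at base 3739 of the transcript exceeded background clearly on 0 Card9-/- and 2 wt arrays. Its processed signals were 7.03, 33.7, 19.5 and 20.01 on the Card9-/- arrays, against 11.0, 16.8, 784 and 1161 on the wt arrays. Taken as a bound, the Card9-/- mean was at least 2.89-fold lower under the scanner's background correction. The measured means were -3.96 in Card9-/- and -2.10 in wt, the latter with replicates 1 and 2 not well above background. With normexp background correction the difference was -1.01, which is smaller than this bound. Without wt replicate 3 the bound fell to 1.39-fold, without wt replicate 4 it was 1.63-fold, and without wt replicate 1 or 2 it was 5.63-fold or 5.43-fold. By the exact permutation test the difference of -1.86 did not exceed the spread between arrays (p = 0.4). The probe at base 359 was likewise well above background on 0 Card9-/- and 2 wt arrays. Both transcript probes thus had their signal on wt replicates 3 and 4, the arrays on which the downstream probe was also highest.

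For Tlr8, 3 further probes were mostly at background. The 1 starting 1300 bases from the standing probe was well above background on 2 Card9-/- arrays and 1 wt array, with levels of -3.06, -5.31, -5.97 and -1.57 on the Card9-/- arrays and -6.08, -6.55, -3.92 and -4.56 on the wt arrays. Its highest array was Card9-/- replicate 4, whereas wt replicate 4 was highest at the standing probe. The exact permutation p of its difference of 1.30 was 0.314.

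**Figure D3:**
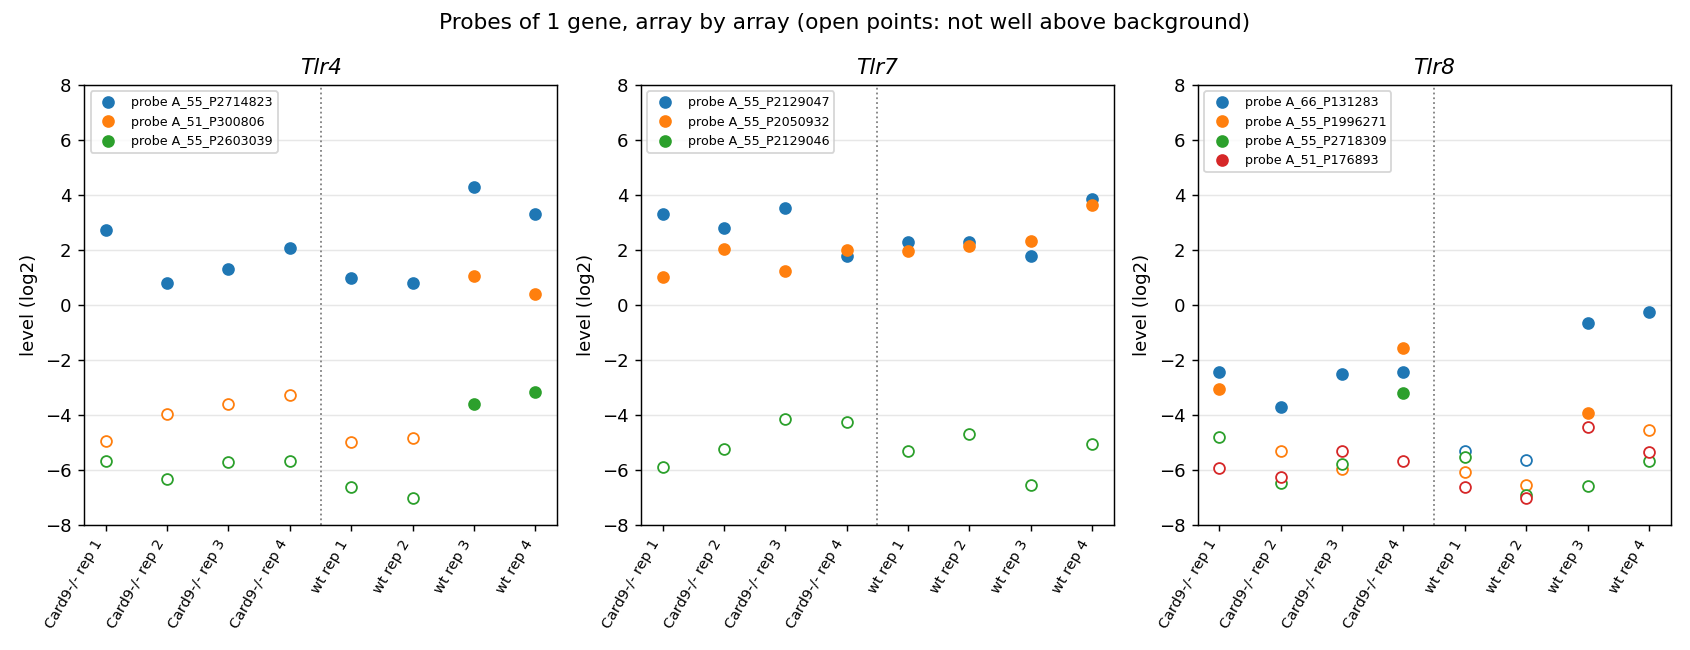
Level of every probe of Tlr4, Tlr7 and Tlr8 (vertical axis, log2) on each array (horizontal axis, Card9-/- at the left, wt at the right). Each colour is a probe, open points were not well above background, and colours within a panel are not to be compared in height. All 3 Tlr4 probes are highest on wt replicates 3 and 4, and the brighter 2 Tlr7 probes part on the Card9-/- arrays.

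The wt SD exceeded the Card9-/- SD for 6 of the 9 tested receptor genes and for 53.9% of all genes. A wider spread on wt arrays was thus not particular to the receptors. For 5 of the 9 (Tlr2, Tlr4, Tlr6, Tlr8 and Tlr13) the 2 highest arrays of all 8 were wt replicates 3 and 4, which held for 14.5% of all genes. The mean level of the 9 genes was 0.66, 0.33, 0.65 and 0.95 on the Card9-/- arrays and 0.04, 0.05, 1.55 and 1.89 on the wt arrays. The surface receptors had means of 1.03 to 1.71 on Card9-/- arrays and 0.67 to 2.97 on wt arrays. The endosomal receptors had means of -0.23 to 0.71 on Card9-/- arrays and -0.69 to 1.02 on wt arrays, and both lists thus ranged more widely on wt arrays.

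Marker genes of macrophages moved with these arrays. Of 10 macrophage markers 9 could be tested and 0 were called between genotypes, and their mean level was 1.81, 1.63, 1.99 and 2.16 on the Card9-/- arrays, against 0.03, 0.24, 6.19 and 4.73 on the wt arrays. Of 8 markers of resident peritoneal macrophages 6 could be tested and 0 were called. Their mean level was -0.81, -0.07, 0.80 and 0.39 on the Card9-/- arrays and -1.63, -1.37, 6.11 and 3.88 on the wt arrays. Gata6 and Cd209b, defining markers of the resident cells, did not pass the filter on dim probes. Thus wt replicates 3 and 4, highest for Tlr2, Tlr4, Tlr6, Tlr8 and Tlr13, also stood highest for both macrophage lists. Wt replicates 1 and 2 stood lowest for both. The pattern was not particular to macrophage markers. The mean level of 8 monocyte markers was 2.46, 2.75, 2.65 and 3.17 on the Card9-/- arrays and 1.27, 1.37, 3.86 and 4.14 on the wt arrays. Lymphocyte markers stood higher on the Card9-/- arrays instead. All 8 T cell markers had a higher Card9-/- mean, 0 passed the adjusted threshold and 7 had an unadjusted limma p under 0.05, against 2.63% of all genes in that direction. The mean T cell marker level was 1.38 to 2.81 on Card9-/- arrays and 0.31 to 0.73 on wt arrays. That of 6 tested natural killer cell markers was -0.12 to 2.25 on Card9-/- arrays and -1.49 to -0.68 on wt arrays. The 12 B cell markers had mean levels of 2.78 to 3.14 on Card9-/- arrays and 1.54 to 2.75 on wt arrays. The part of these cells in the receptor levels was not tested.

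**Figure D4:**
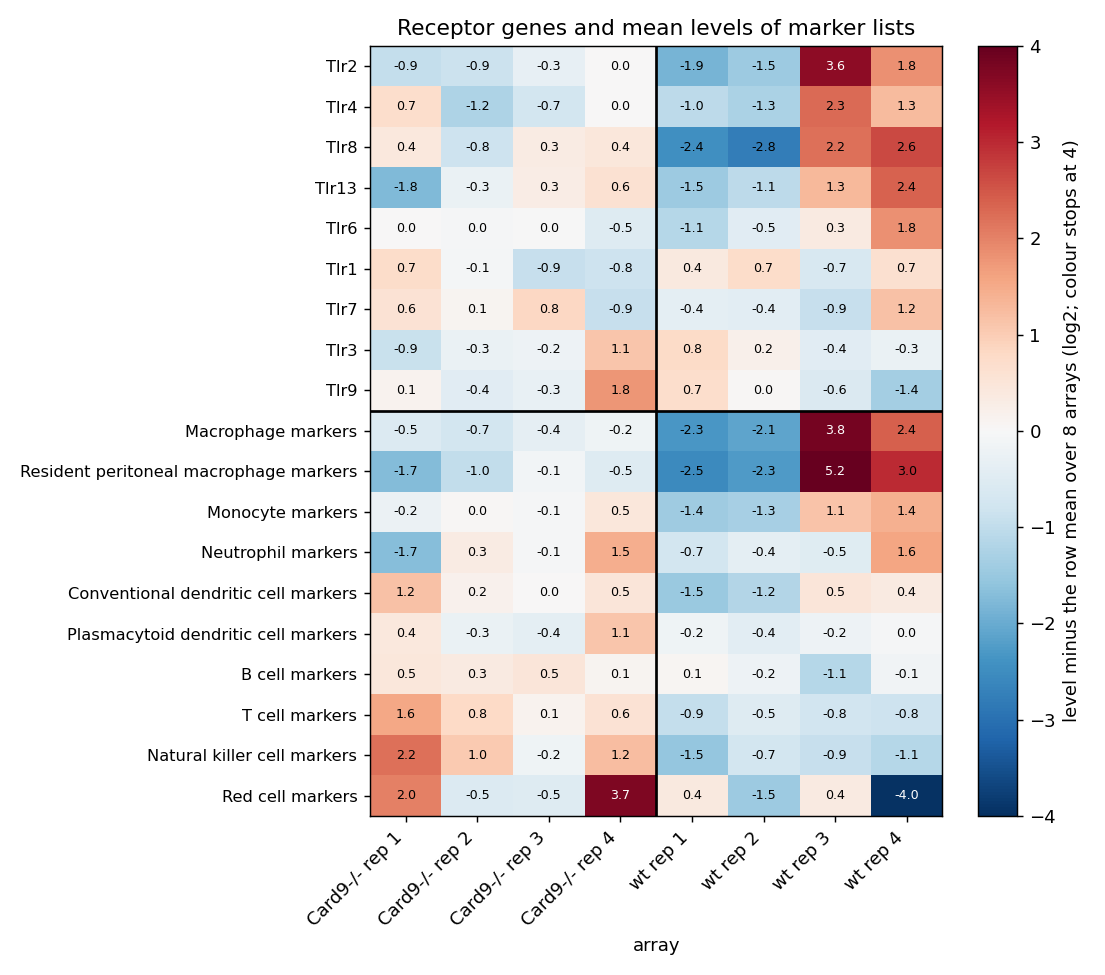
Level of each tested receptor gene (above the line) and mean level of each list of cell type markers (below it), minus the row's mean over the 8 arrays (log2, colour scale), with Card9-/- arrays at the left and wt arrays at the right. Tlr2, Tlr4, Tlr8 and Tlr13 share red cells on wt replicates 3 and 4 with the macrophage, resident macrophage and monocyte markers, and Tlr9 does not.

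The sign of most receptor differences depended on which wt arrays were used. Leaving out wt replicates 1 and 2, the libraries with the lowest Card9 signal (a choice made after seeing the data), the Tlr2 difference became -3.23 and passed the threshold (limma adjusted p = 0.0392, 4 against 2 arrays), with 430 of all genes passing. The differences of Tlr4, Tlr8 and Tlr13 were then -2.07, -2.33 and -2.11, and did not pass. Leaving out wt replicates 3 and 4 instead, those with the highest macrophage markers, Tlr2, Tlr4 and Tlr13 had differences of 1.13, 0.84 and 0.97, and 0 receptor genes passed. Tlr8 was not well above background on either wt array left, so it has only a bound there. That bound was at least 3.68-fold higher in Card9-/- (measured means -2.79 in Card9-/- and -5.49 in wt). Wt replicates 3 and 4 were the 2 highest arrays for Tlr2, Tlr4, Tlr8 and Tlr13, so leaving them out favours that direction. With all arrays the Tlr8 difference was 0.19, and -0.14 with normexp. Between these choices Tlr2, Tlr4, Tlr6, Tlr8 and Tlr13 thus turned to higher in Card9-/-, while Tlr3 (0.28 without wt replicates 1 and 2, -0.55 without wt replicates 3 and 4) and Tlr9 (1.26 and -0.073) turned to lower. Tlr1 was lower in Card9-/- under all 22 alternatives that gave it a value, by 0.28 to 1.12 on the log2 scale, and passed under none of them (limma adjusted p from 0.106 to 0.988). Some of these alternatives, such as the replicate block, leave its estimate as it was. Within slide 1, which holds 1 Card9-/- and all 4 wt arrays, Tlr7 had a difference of -0.78, Tlr3 of 1.04, Tlr9 of 2.08 and Tlr13 of 0.31. These values set a lone array, Card9-/- replicate 4, the highest for Tlr9 and Tlr3, against wt. With slide as a block in the fit of all 8 arrays the differences were the same, because the other slides hold Card9-/- arrays alone.

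**Figure D5:**
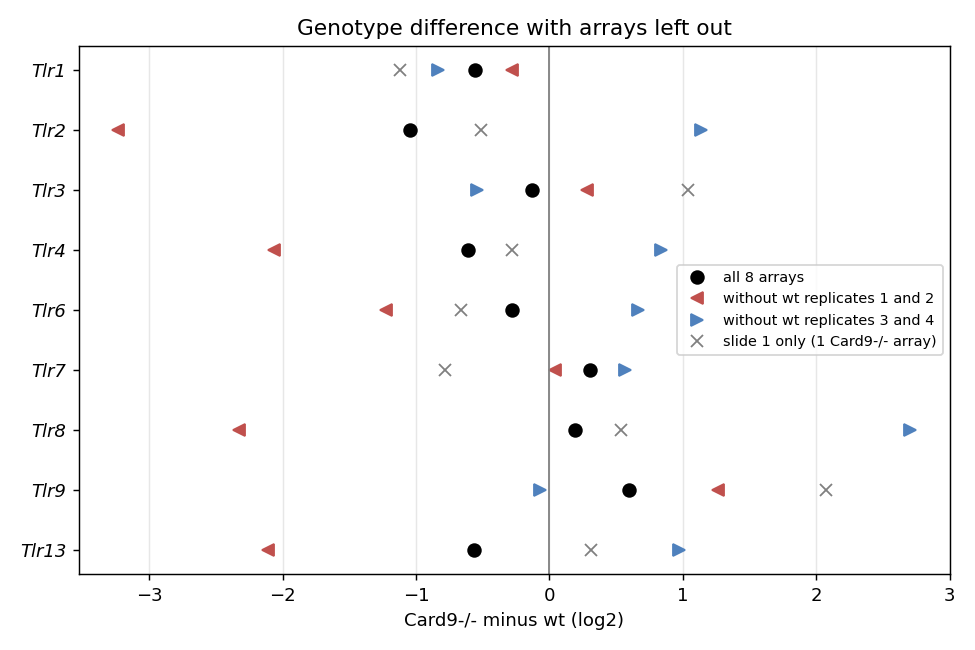
Card9-/- minus wt (horizontal axis, log2) for each tested receptor gene with all 8 arrays, without wt replicates 1 and 2, without wt replicates 3 and 4, and within slide 1. The Tlr8 point without wt replicates 3 and 4 rests on wt arrays that were not well above background. Tlr2 lies at -3.23 without wt replicates 1 and 2 and at 1.13 without wt replicates 3 and 4, while Tlr1 lies below 0 in each.

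The other genes of the pathway showed 0 calls between genotypes in each list, where 0.0269% of all genes passed. Tlr12, a further mouse receptor that senses profilin of protozoa, was well above background on 4 Card9-/- and 2 wt arrays. Its levels were -0.83, -2.24, -3.48 and -0.45 on the Card9-/- arrays and -3.40, -3.04, -4.86 and -4.31 on the wt arrays. The difference of 2.15 did not pass (limma adjusted p = 0.567), and Card9-/- replicate 3 overlapped the wt values. Tlr12 passed the filter on dim probes through the Card9-/- arrays alone, and wt replicates 3 and 4 were not well above background, so the size of this difference is uncertain. Tlr11 was well above background on 0 arrays.

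Of 11 ligand handling genes and co-receptors, 8 were tested, and 5 had a higher and 3 a lower Card9-/- mean (median 0.18). Those with the smallest p were Hmgb1, a DNA-binding protein that is released from dying cells (0.47), Ly96, the MD-2 subunit that binds lipopolysaccharide with Tlr4 (0.64), Cd180, a Toll-like protein of B cells (-0.46), and its partner Ly86 (-0.39). Their limma adjusted p-values were 0.844 to 0.890. Clec7a, the zymosan lectin upstream of Card9, had levels of 3.41, 2.93, 4.03 and 2.82 on the Card9-/- arrays and 0.12, 1.06, 5.46 and 5.20 on the wt arrays. Cd14, the co-receptor of Tlr4, had levels of 5.08, 4.95, 5.60 and 6.12 on the Card9-/- arrays and 2.25, 3.27, 8.85 and 7.33 on the wt arrays. Both genes, named after their values were seen, thus placed all Card9-/- arrays between the lower and upper wt pair, as Tlr2 and Tlr8 did.

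All 20 genes of receptor folding, traffic and cleavage were tested, and 14 had a lower Card9-/- mean (median -0.44). Ap4m1, a subunit of a sorting adaptor complex, had a difference of -0.84, and the endosomal proteases Lgmn and Ctss, which cut nucleic acid receptors into their active form, had -0.87 and -0.74. Plscr1, a membrane scramblase, had 0.60. Unc93b1, the chaperone that carries endosomal receptors out of the endoplasmic reticulum, averaged 4.40 ± 0.35 in Card9-/- and 4.34 ± 1.06 in wt (SD, n = 4 each, limma adjusted p = 0.992). Of 27 adaptors and kinases 26 were tested, 18 with a lower and 8 with a higher Card9-/- mean (median -0.10). The adaptor Myd88 had a difference of -0.56 and Ticam1 of -0.51. The 4 with the smallest p were Tab3, an activator of the kinase Map3k7 (0.93), Irf8, a transcription factor of myeloid and B cells (0.76), Ikbkg, the regulatory subunit of the NF-kB kinase complex (0.77), and Traf3, a ubiquitin ligase of the interferon branch (-0.60). Tab3 was higher on all 4 Card9-/- arrays than on any wt array, and Traf3 lower, with limma adjusted p-values of 0.738 and 0.792. Over all genes tested, 5.22% had groups that did not overlap.

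Of 19 inhibitors of the pathway, 12 had a lower Card9-/- mean (median -0.27). Rnf216, a ubiquitin ligase that in human cells marks Toll-like receptors for degradation, had levels of -1.04, 2.09, 0.07 and 1.71 on the Card9-/- arrays and 2.90, 2.95, 2.50 and 2.35 on the wt arrays. It was the only inhibitor with an unadjusted p under 0.05, against 4.59% of all genes in that direction (difference -1.97, SE 0.66, limma adjusted p = 0.573). Nfkbia, the inhibitor that holds NF-kB in the cytoplasm, had a difference of -0.77 (adjusted p = 0.723 by limma). Its levels were 7.16, 7.62, 7.89 and 7.61 on the Card9-/- arrays and 8.21, 7.91, 9.06 and 8.17 on the wt arrays. The groups of Rnf216 and of Nfkbia did not overlap, which held for 5.22% of all genes. The differences of Sigirr, a decoy receptor of the family, and Zc3h12a, an RNase that degrades cytokine transcripts, were 0.87 and -0.93.

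Of 21 response genes, 13 had a lower Card9-/- mean (median -0.26). Ifnb1, the interferon induced through Ticam1 and the endosomal receptors, had levels of 1.94, -0.78, -0.73 and -0.16 on the Card9-/- arrays and -4.34, -3.09, -3.05 and -0.82 on the wt arrays. The groups did not overlap, which held for 5.22% of all genes, and the difference of 2.89 (SE 0.83) had a limma adjusted p of 0.534. Il12b, a subunit of interleukin 12, had a difference of 3.20 (SE 0.97, limma adjusted p = 0.553) and overlapping groups. These 2 of the 21 response genes had an unadjusted p under 0.05, both higher in Card9-/-, against 2.63% of all genes in that direction. Saa3, an acute phase protein, and Isg15, an interferon-induced ubiquitin-like protein, had differences of -2.31 and -0.66.

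To find which transcripts followed the receptors, levels over the 8 arrays were correlated with those of 10555 named genes well above background on all arrays. The arrays differed in slide and in depth of signal. The 75th percentile of processed signal ran from 195 on Card9-/- replicate 4 to 893 on wt replicate 4. These correlations are therefore only descriptions of 8 points. Tlr2 was followed most closely by Cd93 (0.997), Mt1 (0.995) and Cln8 (0.995). Cd93, a surface protein of myeloid and endothelial cells, had levels of 0.37, 0.66, 1.21 and 2.03 on the Card9-/- arrays and -0.91, -0.43, 6.20 and 4.30 on the wt arrays. Its correlation with Tlr2 was 0.994 over the 6 arrays left without wt replicates 3 and 4, which were among the arrays on which it was picked. For the probe standing for Tlr4 the 3 were Oaz2, Ptges and Marco (0.972 to 0.977). Ptges makes prostaglandin E2 and Marco is a scavenger receptor of macrophages. For Tlr13 they were Fpr1, Arid5b and Crispld2 (0.978 to 0.991). Fpr1, the formyl peptide receptor of phagocytes, had levels of -0.01, 1.64, 2.60 and 3.48 on the Card9-/- arrays, and 0.16, 0.23, 4.05 and 5.77 on the wt arrays. Tlr6 was followed by Synj1, Fuca2 and Il15, Tlr7 by Acbd3, Fam32a and Ube2d1, Tlr9 by Tpm1, Nom1 and Mcf2l, and Tlr1 by Ccnf, Mrpl47 and Gmfb (0.961 to 0.991). With the 2 arrays farthest from a receptor's median left out, the correlations of all 21 pairs were 0.883 to 0.994.

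The windows of 250 bases before the transcription start are shown for 3 receptors with different patterns over the arrays, Tlr2 and Tlr13, highest on wt replicates 3 and 4, and Tlr9, lowest there. They are RefSeq sequences of GRCm38.p6, written 5′ to 3′ on the gene's strand. Capitals mark matches on either strand to the NF-kB consensus, to the core GAGGAA of sites bound by ETS factors such as PU.1, to the interferon-stimulated response element and to the GC box GGGCGG.
Tlr2 (chr3:83841609-83841858, minus strand): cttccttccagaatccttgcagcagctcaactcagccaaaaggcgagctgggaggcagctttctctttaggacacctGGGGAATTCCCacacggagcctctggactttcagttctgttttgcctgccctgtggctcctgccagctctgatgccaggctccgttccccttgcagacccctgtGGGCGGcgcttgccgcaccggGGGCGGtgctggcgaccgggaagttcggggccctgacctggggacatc
Tlr13 (chrX:106143025-106143274, plus strand): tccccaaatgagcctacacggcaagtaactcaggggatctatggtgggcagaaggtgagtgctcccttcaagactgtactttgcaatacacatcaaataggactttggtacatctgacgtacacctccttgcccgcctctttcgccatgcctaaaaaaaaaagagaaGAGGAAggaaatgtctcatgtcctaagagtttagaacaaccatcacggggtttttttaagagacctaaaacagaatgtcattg
Tlr9 (chr9:106222348-106222597, plus strand): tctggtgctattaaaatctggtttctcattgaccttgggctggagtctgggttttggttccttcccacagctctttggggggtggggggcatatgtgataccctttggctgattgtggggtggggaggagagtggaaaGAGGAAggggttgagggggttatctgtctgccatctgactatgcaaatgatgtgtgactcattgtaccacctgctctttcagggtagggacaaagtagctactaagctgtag
The table held windows for 8 of the 10 receptors, 10 windows in all. The NF-kB consensus was found before Tlr2 (overlapping matches starting 173 and 172 bases before the start) and before Tlr3 (211 bases), against 3.9% of all 32851 windows. GAGGAA was found before Tlr13 (83 bases), Tlr9 (112), Tlr8 (77, on the other strand) and 1 of the Tlr1 windows (23), against 23.3% of windows. The interferon-stimulated response element was found in 1 window of Tlr6, in overlapping matches on the other strand (116 and 110 bases), against 2.98% of windows. GC boxes were found before Tlr2 (69 and 48 bases) and Tlr5 (42 and 24 bases), against 32.7% of windows. Tlr13 and Tlr9, which moved in opposite ways on wt replicates 3 and 4, thus both held GAGGAA, and Tlr2 did not in this window. A match describes letters in a window and is not evidence of binding.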

How the data were processed

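Each deposited scanner file gives the intensity of the spots of a Cy3 array (0.2 µg RNA), background-corrected per the file headers by Agilent's Feature Extraction software, version 10.7.1.1. The authors' series matrix holds log2 values of the same arrays. Its steps are not given in the sources used here, 7075 of its 56745 rows were out of step with their identifiers, and it was used only as an alternative over the other 49670. Groups and replicate numbers came from the labels of the scanner files. All 8 matrix columns were most alike a scanner file of their own genotype, but only 2 a file of their own replicate number. The deposited sources thus disagree on replicate numbers, and those of the scanner files are used here.

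Processed signals of 59305 non-control spots were taken to log2 and the array's 75th percentile subtracted. Outlier spots were set to missing (a probe needed 3 usable arrays per group), and repeated spots were averaged. A probe was kept if 3 or more of a genotype's 4 arrays had it well above background (28166), and the probe with the highest mean stood for a gene (18603 genes, names updated through a GRCm38.p6 table). The genotype difference was fitted with limma (version 3.58.1, R 4.3.3) by lmFit and eBayes (two-sided, Benjamini-Hochberg over all genes, 0.05), tested on simulated data, and single probes also with exact permutation tests. Folds called "at least" set the brighter group's mean against, per array, the higher of the dim probe's level and the lowest level well above background (-4.17 to -3.47 on Card9-/- arrays and -4.84 to -4.31 on wt arrays). They hold for the scanner's background correction. Intervals are at 95%.

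The receptor genes, pathway lists and marker lists were chosen with earlier results of these data known. Named were all members and, per pathway list, the 4 genes with the smallest p where none passed; for likeness, the 3 named genes with the highest correlation. Genes named beyond that rule (Clec7a, Cd14, Unc93b1, Myd88 and Ticam1) were picked for their place in the pathway after values were seen. Alternatives covered scaling, background, filter, probe choice, slide, replicate number, array weights, prior, the authors' matrix and arrays left out.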

Additional observations from a re-analysis of the deposited data

Results flagged for a closer look

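For 5 of 42 groups of 4 arrays, a single array lay far from the other 3 of its genotype by Dixon's criterion, which chance alone meets in about 1 of 20 groups. At the standing probes this held for Tlr6 in Card9-/- replicate 4 (level -0.37, the others 0.11 to 0.18) and for Tlr8 in Card9-/- replicate 2 (-3.72, the others -2.54 to -2.44). The remaining flags concern probes near background. The second Tlr3 probe was at -3.55 in wt replicate 4, the only array on which it was well above background. A Tlr5 probe was at -3.95 in wt replicate 1, again its only array well above background. The Tlr4 probe at base 359 was at -6.35 in Card9-/- replicate 2, where it was not well above background.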

How the results depend on the processing

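With 4 arrays per genotype and wt arrays this far apart, the intervals of single receptors span 2.21 to 5.52 log2 units, and faint probes of Tlr3, Tlr5 and Tlr8 are limited by signal over background. Median scaling put the median of all genes at -0.26 and normexp at 0.03, against -0.09. The count of receptor genes past the threshold was 0 in all alternatives except 1 (Tlr2) without wt replicates 1 and 2. The count of all genes past it was 5, and 0 with probes above background on all 8 arrays (1062 at an unadjusted p under 0.05), 11 over probes, 0 with slide as a block (1660) and 0 within slide 1 (1637). It was 3 with a replicate block, 804 with array weights and 430 without wt replicates 1 and 2. The weights were 3.05 and 8.85 on wt replicates 1 and 2, and 0.19 and 0.35 on wt replicates 3 and 4. On the Card9-/- arrays they were 0.31 to 1.88. The weighted wt mean thus rests mostly on wt replicates 1 and 2, the pair most alike. Leaving out single arrays gave 5 to 6. The mean receptor difference was -0.23, and -1.07 without wt replicates 1 and 2, 0.60 without wt replicates 3 and 4, 0.41 with array weights, 0.067 with slide as a block or within slide 1 and -0.51 to 0.10 without single arrays. Both slide settings rest on 1 Card9-/- array, assumed to vary like the others, so their counts of 0 say little. Same-numbered arrays did not deviate together as a set (correlations -0.13, 0.25, -0.12 and -0.28), and only wt replicate 2 was most alike its own number. No pairing by number was seen, but 4 correlations cannot exclude it. With the replicate block 0 receptor genes passed and their mean difference was -0.23.

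Of 203 receptor values under alternatives, 172 kept their direction and side of the threshold, 30 turned and Tlr2 passed once. The cause was not tested. The values are not independent. The 2 filter settings, the replicate block and the other prior left the receptor estimates as they were, and both slide settings gave the same estimates. The count of 172 therefore includes values that could not turn. With array weights, which favoured wt replicates 1 and 2, Tlr2 was 0.76, Tlr4 0.41, Tlr6 0.50, Tlr9 -0.29 and Tlr13 0.76. Without wt replicates 3 and 4, Tlr2 was 1.13, Tlr4 0.84, Tlr6 0.67, Tlr9 -0.073 and Tlr13 0.97. Without wt replicates 1 and 2, Tlr3 was 0.28 and Tlr8 -2.33, and with both averaged 0.0078 and -0.65. With the slide block and within slide 1, Tlr3 was 1.04, Tlr7 -0.78 and Tlr13 0.31. With normexp, Tlr3 was 0.23 and Tlr8 -0.14, and averaging the kept Tlr7 probes gave -0.32. Leaving out single arrays turned Tlr3 (-0.52 to 0.14, above 0 without wt replicate 1 or Card9-/- replicate 1), Tlr4 (-1.13 to 0.036, above 0 without wt replicate 3), Tlr6 (-0.71 to 0.28) and Tlr13 (-1.15 to 0.12), both above 0 without wt replicate 4, and Tlr8 (-0.71 to 1.10, below 0 without wt replicate 1 or 2).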
